A study of Macaca mulatta with 4 samples.

Results

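The genes described here encode the enzymes that modify and crosslink collagen, with the chaperone that folds it. The list has 10 symbols: the prolyl 4-hydroxylase alpha subunits P4HA1, P4HA2 and P4HA3, the lysyl hydroxylases PLOD1, PLOD2 and PLOD3, the collagen chaperone SERPINH1, and the lysyl oxidases LOX, LOXL1 and LOXL2. A member was any listed symbol paired with a row of the deposited table, and 8 of the 10 had a row among 21314 rows in all. LOX and LOXL2 matched no row, were not analysed here, and are not taken as absent, since rows without a symbol could hold them. The study sequenced total RNA of RF/6A cells, a line from rhesus macaque (Macaca mulatta) whose labels call it chorioretinal, and asked whether these cells are endothelial. All 4 libraries, titled static and numbered 1 to 4, came from this line, bought as a single lot and grown in Dulbecco's medium with heat-inactivated fetal bovine serum, penicillin and streptomycin. There was 1 group, with no treated or control libraries, and nothing in the labels says that the libraries came from separate cultures. SDs therefore measure the spread between these libraries, which may be technical. The p-values come from flipping the sign of a difference between genes over the same libraries, so they reach no further.

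Collagen chains are modified in the endoplasmic reticulum before they leave the cell. Prolyl 4-hydroxylase, a tetramer of alpha subunits and the PDI subunit encoded by P4HB, hydroxylates prolines so that the triple helix is stable at body temperature. Lysyl hydroxylases hydroxylate lysines that later carry sugars or enter crosslinks, and PLOD2 is the form known for acting on the telopeptides at the chain ends. SERPINH1 (HSP47) binds the folded helix, and lysyl oxidases crosslink collagen and elastin outside the cell. In the eye these enzymes are known from the collagen-making cells of sclera, choroid and cornea.

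The libraries held between 20366946 and 20550610 estimated counts. Values are CPM (a gene's counts divided by the scaled library total times 1000000), scaled by the trimmed mean of M-values (TMM), and they are not divided by transcript length, since no length was given in the sources used here. The level of a gene can be set against itself in another library, and the balance of 2 genes can be followed across libraries, but these values give no order of molecule numbers between genes. Library 2 stood apart from the other 3. Of 12453 rows with a mean of at least 1 CPM, it lay apart by Dixon's gap test on log2(CPM + 0.5) and was low in 21.5%, and it lay apart and was high in 14.7%. Its TMM factor was 0.793 against 1.08 to 1.09 in the others, and rows without a symbol took 21.7% of its counts against 13.1% to 13.9%. Values are given per library, so that each can be seen with and without it. Defining endothelial genes were low: 1 of 8 reached 1 CPM in every library, beside 64.3% of rows with a count. Their summed level was between 5.12 and 8.31 CPM. A mean of at least 1 CPM was found for 2 of them, PECAM1 and KDR. PECAM1, which reached 1 CPM in every library, measured 2.05 to 3.41 CPM. KDR measured 0.432 CPM in library 2 and at least 1.49 CPM in each other library. All 10 fibroblast and mesenchymal genes reached 1 CPM in every library, at a summed 27637 to 43953 CPM. Of 6 retinal pigment epithelium genes, 3 reached it, TYR had no count, and the sum was 49.2 to 66.8 CPM. Of 4 matched epithelial genes, 4 reached it, with a summed 3591 CPM in library 2 and 984 to 1121 CPM elsewhere. KRT8 matched no row. KRT18 made up most of that sum, at 3487 CPM in library 2 and 951 to 1077 CPM elsewhere. KRT19 measured 96.7 CPM in library 2 and 23.4 to 34.9 CPM elsewhere, and EPCAM 1.71 to 3.27 CPM. CDH1, at 4.56 to 8.45 CPM, was lowest in library 2. Of 5 leukocyte genes 2 reached 1 CPM in every library, CD3E had no count, and the sum was 14.6 to 16.4 CPM. The part of these marker levels in the results was not tested.

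RF/6A cells carried transcripts for proline hydroxylation, lysine hydroxylation, collagen folding and crosslinking. Of the 8 members with a row, 7 reached 1 CPM in every library, a threshold that 64.3% of the 17534 rows with a count also passed. The exception was P4HA3. The count was 7 without library 2, with every scaling tried, and at thresholds of 0.5 and 5 CPM, which 69.4% and 49.0% of those rows passed.

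**Figure D1:**
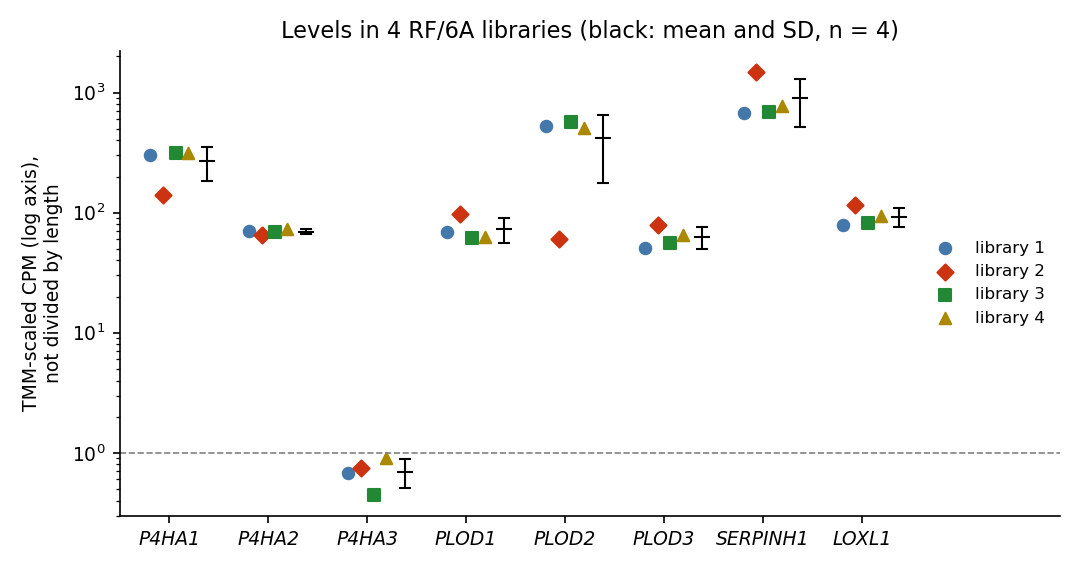
Each point is the level of 1 of the 8 genes with a row in 1 of the 4 RF/6A libraries, in TMM-scaled CPM on a log axis. Black bars show means with SD (n = 4) and the dashed line is at 1 CPM. PLOD2 is at 60.02 CPM in library 2 and at 506 to 568 CPM elsewhere, P4HA2 stays between 65.02 and 73.3 CPM, and P4HA3 lies below the line in every library.

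Among the prolyl 4-hydroxylase subunits, P4HA1 (ENSMMUG00000011274), the widely expressed catalytic subunit, measured 301 CPM in library 1, 140 CPM in library 2, 315 CPM in library 3 and 311 CPM in library 4. Libraries 1, 3 and 4 lay close together and library 2 was low. The mean was 267 ± 84.9 CPM (SD, n = 4), and 309 ± 7.14 CPM (SD, n = 3) without library 2. Among those 3 libraries the coefficient of variation was 2.31%, above the 1.21% that counting error alone gives.

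P4HA2 (ENSMMUG00000010858), the subunit known from chondrocytes, osteoblasts and capillary endothelium, differed little between libraries with TMM. It measured 70.9, 65.02, 69.1 and 73.3 CPM in libraries 1 to 4, a mean of 69.6 ± 3.49 CPM (SD, n = 4). The coefficient of variation was 5.02% with TMM and 18.03% with plain CPM. Library 2 was the lowest, at 0.12 log2 units under the median of the others. With plain CPM in place of TMM that gap was 0.56 log2 units and library 2 lay apart, a scaling under which the median of all rows was also lower in library 2 (-0.49 against -0.07 with TMM).

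P4HA3 (ENSMMUG00000017399), the remaining alpha subunit, had 15, 12, 10 and 20 counts in libraries 1 to 4. These correspond to 0.682, 0.74, 0.449 and 0.904 CPM, all below 1 CPM. Over the 4 libraries the exact 95% Poisson limits on the summed counts were 0.523 and 0.894 CPM. In single libraries the upper limit passed 1 CPM in libraries 1, 2 and 4, so at this depth those libraries do not place P4HA3 below 1 CPM on their own. Limits cover counting error only.

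P4HA1 and P4HA2 shared nearly all counts of the 3 subunits. P4HA1 took 80.8%, 68.0%, 81.9% and 80.7% of them in libraries 1 to 4, and P4HA2 took 19.02%, 31.6%, 18.0% and 19.02%. The exact 95% binomial interval of the P4HA1 share was 66.4% to 69.6% in library 2 and began at 79.9% or higher in each other library, so the shift is beyond counting error. P4HA3 took between 0.117% and 0.36%. The log2 difference of P4HA1 and P4HA2 was 2.08, 1.10, 2.18 and 2.08 in libraries 1 to 4, and library 2 lay apart from the rest by Dixon's test. A length difference adds the same amount in every library, so this shift of -0.98 log2 units does not contain one, provided that the isoforms in use were the same.

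The counts of P4HA1 exceeded those of P4HA2 in 4 of 4 libraries, by 1.86 ± 0.51 log2 units (SD, n = 4). They exceeded those of P4HA3 in 4 of 4, by 7.75 ± 0.66 log2 units, and P4HA2 exceeded P4HA3 by 5.89 ± 0.23. Each of these 3 pairs gave p = 0.125 in an exact two-sided permutation test that flips signs over libraries, the smallest that 4 libraries allow, and 0.25 after Benjamini-Hochberg adjustment over the 6 pairs compared, so none passed 0.05. These are differences in counts per gene, not per length.

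Among the members with a row, the lysyl hydroxylase PLOD2 differed most between libraries. PLOD2 (ENSMMUG00000011577), the telopeptide lysyl hydroxylase, measured 531, 60.02, 568 and 506 CPM in libraries 1 to 4. Library 2 was far below the other 3, which did not spread far. The mean was 416 ± 239 CPM (SD, n = 4), and 535 ± 31.5 CPM (SD, n = 3) without library 2. Library 2 was 8.78 times lower than the median of the others, or -3.13 log2 units, and 3.41% of the 12453 rows had a more negative value. The gap was -3.12 with median-of-ratios size factors and -3.57 with plain CPM.

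PLOD1 (ENSMMUG00000032249), which hydroxylates lysines of the helix, measured 69.5, 97.9, 61.1 and 62.8 CPM in libraries 1 to 4. PLOD3 (ENSMMUG00000006949), which also has glycosyltransferase activity, measured 50.4, 79.02, 55.7 and 65.5 CPM. With TMM both were highest in library 2, opposite to PLOD2, without lying apart by Dixon's test. With plain CPM PLOD1 was still highest there (77.7 CPM), whereas PLOD3 was highest in library 4 (70.5 CPM against 62.7 CPM in library 2). Their means were 72.8 ± 17.1 and 62.7 ± 12.6 CPM (SD, n = 4). Relative to the median of the others, library 2 was higher by 0.64 log2 units for PLOD1 and 0.50 for PLOD3 with TMM, and by 0.20 and 0.052 with plain CPM.

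The balance of the lysyl hydroxylases differed between library 2 and the rest. PLOD2 took 81.6%, 82.9% and 79.8% of the lysyl hydroxylase counts in libraries 1, 3 and 4, and 25.3% in library 2 (exact 95% binomial interval 24.0% to 26.7%). In library 2, PLOD1 held 41.3% and PLOD3 33.4%, against 8.92% to 10.7% and 7.75% to 10.3% in the others. The log2 difference of PLOD1 and PLOD2 was -2.92, 0.70, -3.21 and -3.00 in libraries 1 to 4, a shift of 3.70 log2 units in library 2. That of PLOD2 and PLOD3 was 3.38, -0.39, 3.34 and 2.94, a shift of -3.73. In both pairs the sign in library 2 was opposite to that in the other 3, and library 2 lay apart by Dixon's test.

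**Figure D2:**
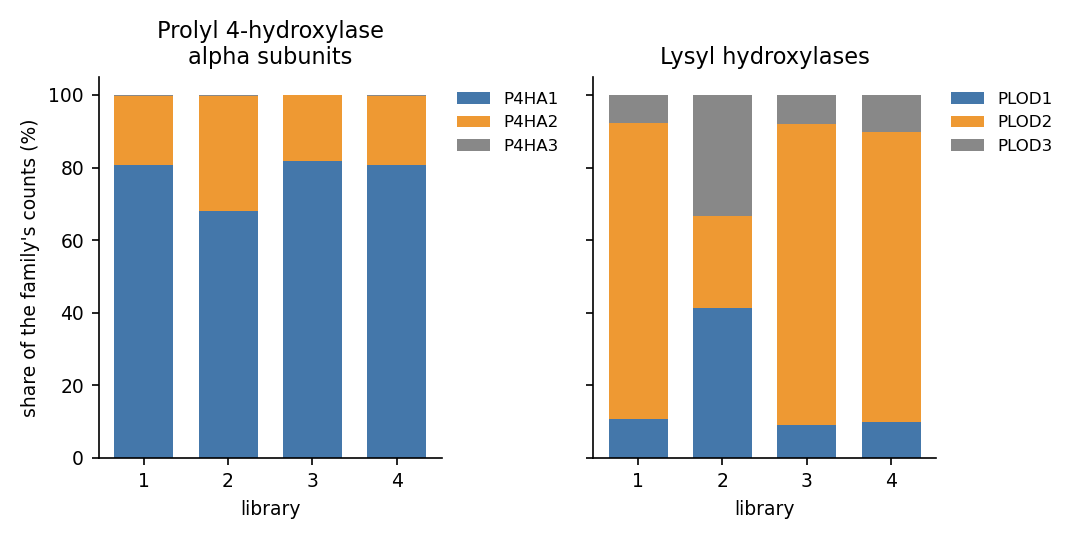
Stacked bars give the share, in percent, of the counts of 3 prolyl 4-hydroxylase alpha subunits (left) and 3 lysyl hydroxylases (right) that each gene took in libraries 1 to 4, not divided by length. PLOD2 holds 79.8% to 82.9% in libraries 1, 3 and 4 and 25.3% in library 2, whereas P4HA1 holds the largest share of its family in every library.

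Over the 4 libraries the PLOD pairs had a wide spread. The mean log2 difference was -2.11 ± 1.88 for PLOD1 and PLOD2 and 2.32 ± 1.82 for PLOD2 and PLOD3 (SD, n = 4). Both had p = 0.25 in the exact permutation test, and 0.25 after adjustment. Over libraries 1, 3 and 4 these were -3.04 ± 0.15 and 3.22 ± 0.24 (SD, n = 3), where the smallest possible p is 0.25. PLOD1 and PLOD3 differed by 0.21 ± 0.22 log2 units, and PLOD1 was the higher in 3 of 4 (p = 0.25 by the exact permutation test, also 0.25 adjusted). Their difference ran from -0.06 in library 4 to 0.46 in library 1, within which library 2 lay at 0.31, so the balance of this pair did not shift with that library. The 3 lysyl hydroxylases summed to 651, 237, 685 and 634 CPM in libraries 1 to 4, and the 3 prolyl 4-hydroxylase subunits to 373, 205, 384 and 385 CPM.

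SERPINH1 (ENSMMUG00000007675), the HSP47 chaperone that binds procollagen helices, measured 673, 1487, 695 and 769 CPM in libraries 1 to 4. It was high in library 2, the reverse of PLOD2 and P4HA1. The mean was 906 ± 389 CPM (SD, n = 4), and 712 ± 50.6 CPM (SD, n = 3) without library 2. Library 2 was 2.14 times the median of the others, and its Dixon ratio of 0.831 only just passed the critical value. With plain CPM the gap was 0.64 log2 units in place of 1.10 and SERPINH1 no longer lay apart.

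The balance of SERPINH1 and COL1A1 stayed nearly constant. COL1A1 encodes the main chain of type I collagen and a ligand of this chaperone. Their log2 difference was -3.68, -3.47, -3.60 and -3.64 in libraries 1 to 4, a spread of 0.094 (SD, n = 4). The log2 differences of PLOD2 and COL1A1 (-4.03, -8.09, -3.89 and -4.25) and of P4HA1 and COL1A1 (-4.84, -6.87, -4.74 and -4.95) had SDs of 2.02 and 1.02. In library 2, COL1A1 was thus high, though not apart by Dixon's test, together with SERPINH1 while 2 of the enzymes that modify it were low. These 3 differences were chosen after the values were seen, and 4 libraries are too few for a correlation. The near constant balance was not shared by COL1A2 and COL3A1. Library 2 less the median of the others was 0.35 log2 units for COL1A2 and -0.10 for COL3A1. It was 0.93 for COL1A1 and 1.10 for SERPINH1.

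Only LOXL1 of the listed lysyl oxidases was measured. LOXL1 (ENSMMUG00000003638), which is needed for elastic fibre upkeep, measured 78.6, 116.6, 81.8 and 93.3 CPM in libraries 1 to 4, a mean of 92.6 ± 17.2 CPM (SD, n = 4). Library 2 was the highest with TMM without lying apart, and library 4 was the highest with plain CPM. Library 2 less the median of the others was 0.51 log2 units with TMM and 0.059 with plain CPM. LOXL3, a further lysyl oxidase with a row, measured 33.1, 45.9, 35.5 and 39.6 CPM. Library 2 was higher by 0.36 log2 units with TMM and lower by 0.08 with plain CPM. The log2 difference of LOXL1 and LOXL3, which was not among the planned pairs, stayed between 1.19 and 1.34 in the 4 libraries. These genes thus kept their balance where PLOD2 and P4HA1 did not. LOXL4 matched no row.

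Of the 7 members with a mean of at least 1 CPM, library 2 lay apart for 3, low for P4HA1 and PLOD2 and high for SERPINH1. Of all rows with such a mean, 36.9% had any library apart. Library 2 was apart and low in 21.5% and apart and high in 14.7%. No other library lay apart for a member. Among the 7 members with a mean of at least 1 CPM, library 2 was below all 3 others for 3 and above them for 4. Over all 12453 rows it was below them in 48.0% and above in 43.8%, and with plain CPM in 59.9% and 31.4%. The count of 3 is thus near the background, and the 3 members differed in direction. With plain CPM the 3 members were P4HA1, P4HA2 and PLOD2, all low, and the shares of rows with library 2 low and high were 30.4% and 7.25%. After the median of all rows was subtracted, library 2 stood at -3.06 for PLOD2, -1.08 for P4HA1 and 1.17 for SERPINH1 with TMM and at -3.08, -1.10 and 1.14 with plain CPM.

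**Figure D3:**
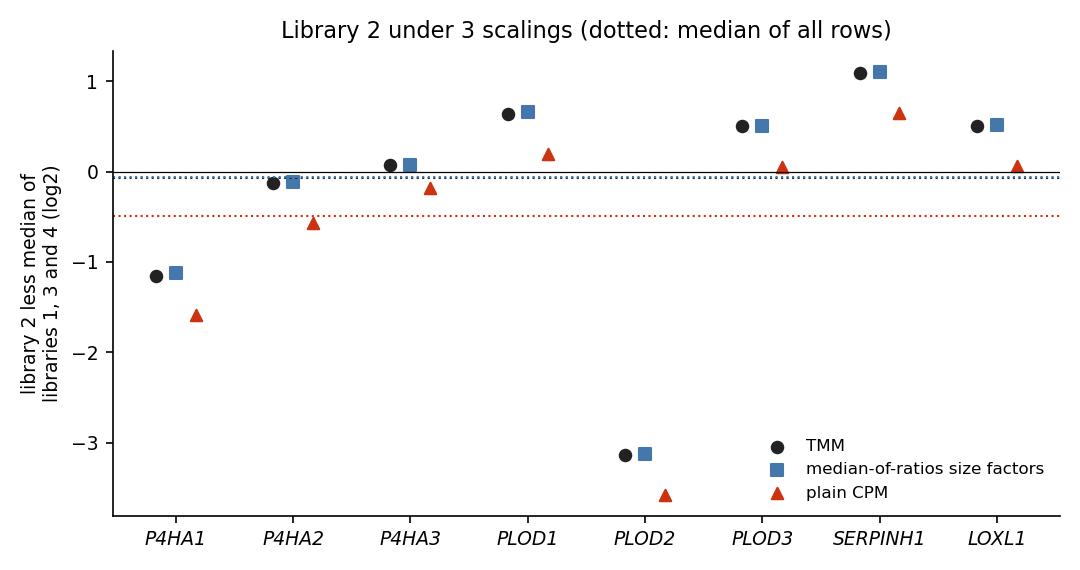
Points give the log2 level of library 2 less the median of libraries 1, 3 and 4 for the 8 genes under TMM, median-of-ratios size factors and plain CPM, and dotted lines give the median of all rows under each. PLOD2 lies below -3 and P4HA1 below -1 under the 3 scalings, PLOD1, PLOD3, SERPINH1 and LOXL1 lie above 0 under each, and P4HA3 changes sign with plain CPM (-0.19).

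The partners of the prolyl hydroxylases were mostly higher in library 2, where P4HA1 was low, but only PPIB of them lay apart by Dixon's test. All 8 matched genes of this list reached 1 CPM in every library, beside 64.3% of rows. Library 2 was above the other 3 for 7 of the 8, beside 43.8% of rows, and P3H2 lay within them. With plain CPM it was above for 6 and below for 2 (CRTAP and P3H2), beside 31.4% and 59.9% of rows. The list had a median difference of 0.81 log2 units (0.36 with plain CPM, 0.88 and 0.86 after the median of all rows was subtracted). P4HB, the PDI subunit that completes the prolyl 4-hydroxylase tetramer, measured 967, 1773, 1001 and 1114 CPM in libraries 1 to 4. The log2 difference of P4HB and P4HA1 was 1.68, 3.66, 1.67 and 1.84, so in library 2 the beta subunit stood 3.94 times higher relative to P4HA1 than in the median of the others. This difference was not among the planned pairs, and its shift follows from the levels of these genes given above. PPIB, or cyclophilin B, measured 622, 2089, 609 and 684 CPM, and library 2 lay apart. CRTAP, which forms a complex with PPIB and the prolyl 3-hydroxylase P3H1, measured 230, 312, 236 and 253 CPM, and P3H1 57.0, 92.8, 56.5 and 62.2 CPM.

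The partners of the lysyl hydroxylases split. Of 8 matched genes 6 reached 1 CPM in every library, beside 64.3% of rows. Without library 2 the count was 7, which added TMEM38B, a potassium channel of the endoplasmic reticulum. FKBP10 (FKBP65), a peptidyl-prolyl isomerase that PLOD2 needs for telopeptide hydroxylation, measured 178, 398, 178 and 208 CPM in libraries 1 to 4. It was highest in library 2, where PLOD2 was lowest, and their log2 difference went from between 1.28 and 1.68 to -2.72. That difference was not planned either, and its shift follows from those levels. COLGALT1, the galactosyltransferase that acts on hydroxylysine, measured 84.6, 38.9, 75.5 and 86.1 CPM and was low in library 2, as was FKBP9 at 79.4 CPM against 145 to 154 CPM. Over the 7 genes that averaged 1 CPM or more, library 2 was below the other 3 for 4 and above them for 3. The shares over all rows were 48.0% and 43.8%. With plain CPM the counts were 4 and 2, beside 59.9% and 31.4% of rows.

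Genes of later steps were present too. All 15 matched secretion genes reached 1 CPM in every library, beside 64.3% of rows. They were led by KDELR1, a retrieval receptor of the endoplasmic reticulum (265, 706, 253 and 289 CPM). SEC31A, a COPII coat gene, measured 319, 256, 324 and 330 CPM, and MBTPS1 147 to 206 CPM. Library 2 was below the other 3 for 9 and above for 4, beside 48.0% and 43.8% of rows. With plain CPM the counts were 13 and 2, beside 59.9% and 31.4%. SEC23A, the COPII gene needed for procollagen export, measured 133, 8.82, 159 and 143 CPM and was named after its values were seen. Of 10 propeptide processing genes 6 reached 1 CPM in every library, beside 64.3% of rows. Without library 2 the count was 7, which added TLL1, a relative of BMP1, and with plain CPM it was 5. Among the 7 genes that averaged 1 CPM or more, library 2 was below the other 3 for 4 and above for 2. The shares over all rows were 48.0% and 43.8%. With plain CPM the counts were 6 and 1, beside 59.9% and 31.4% of rows. PCOLCE, the enhancer of procollagen C-proteinase, measured 154, 485, 157 and 178 CPM, and PCOLCE2 between 112 and 132 CPM. BMP1, the proteinase itself, measured 53.3, 51.3, 46.4 and 60.8 CPM, and ADAMTS2, which removes the N-propeptide, 2.05, 1.11, 1.75 and 1.67 CPM. MEP1A and MEP1B had no count.

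Among 6 matched genes of cofactor supply 5 reached 1 CPM in every library, beside 64.3% of rows. They were led by IDH1, which makes 2-oxoglutarate (382, 215, 410 and 393 CPM), and IDH2 (67.7, 137, 71.8 and 82.0 CPM). ATP7A, the copper pump that loads lysyl oxidases, measured 29.03, 5.00, 28.5 and 21.03 CPM. Library 2 was below the other 3 for 4 of these 5 and above for IDH2, beside 48.0% and 43.8% of rows.

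The substrates of these enzymes included genes on either side in library 2. Of 10 matched fibrillar collagen genes 9 reached 1 CPM in every library, beside 64.3% of rows. COL1A1 measured 8653, 16445, 8427 and 9600 CPM in libraries 1 to 4, COL1A2 between 7613 and 9914 CPM with the highest value in library 2 (the lowest with plain CPM), and COL3A1 between 5303 and 5932 CPM with the lowest there. Library 2 was below the other 3 for 6 of the 9 and above for 3, beside 48.0% and 43.8% of rows. With plain CPM the counts were 7 and 2, beside 59.9% and 31.4%. The median difference was -0.51 log2 units with TMM. Of 10 matched genes of other substrates and binders 9 reached 1 CPM in every library, beside 64.3% of rows. ELN, the elastin that LOXL1 crosslinks, had at most 0.0455 CPM. FN1, or fibronectin, measured 14908, 3228, 13638 and 12620 CPM in libraries 1 to 4, THBS1 51.1 CPM in library 2 against 522 to 588 CPM, and BGN 881 CPM against 464 to 523 CPM. Library 2 was below the other 3 for 7 of these 9 and above for 2, beside 48.0% and 43.8% of rows.

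P4HA1 and PLOD2 are known targets of hypoxia-inducible factors, so the genes of that pathway were listed beside them. Other members could be targets too, and not all were low in library 2. Library 2 less the median of the others was -0.12 log2 units for P4HA2 and 0.64 for PLOD1. All 15 matched genes reached 1 CPM in every library (14 with plain CPM), beside 64.3% of rows. Library 2 was below the other 3 for 11 and above for 3, beside 48.0% and 43.8% of rows. With plain CPM the counts were 13 and 1, beside 59.9% and 31.4% of rows. The median difference with TMM was -0.72 log2 units, or -0.65 after the median of all rows was subtracted. LDHA measured 776, 402, 720 and 691 CPM in libraries 1 to 4, EPAS1, the HIF-2 alpha gene, 766, 326, 788 and 685 CPM, and NDRG1 511, 283, 522 and 649 CPM. HIF1A, named after its values were seen, measured 409, 52.3, 428 and 391 CPM. For ADM and PGK1 the order depended on the scaling. With TMM, ADM measured 147 CPM in library 2 against 98.7 to 130 CPM, and PGK1 209 CPM against 178 to 206 CPM. With plain CPM, ADM was highest in library 4 and PGK1 was lowest in library 2, at 166 CPM against 192 to 221 CPM. EGLN1, VHL, CA9 and ANKRD37 matched no row. The part of this pathway in the levels of P4HA1, PLOD2 and the other members was not tested.

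SERPINH1 is a known target of heat shock factor. All 8 matched genes of that list reached 1 CPM in every library, beside 64.3% of rows. Library 2 was above the other 3 for 5 and below for 3, beside 43.8% and 48.0% of rows. With plain CPM the counts were 3 and 3, beside 31.4% and 59.9%. The list had a median difference of 0.46 log2 units (0.02 with plain CPM). HSPA8 measured 1888, 2863, 1901 and 1974 CPM in libraries 1 to 4. The mitochondrial chaperone genes went apart, HSPD1 at 1245, 866, 1281 and 1235 CPM and HSPE1, summed over 3 rows with that symbol, at 190, 628, 198 and 209 CPM. HSPE1 has near-identical copies, which makes its counts uncertain. The part of this pathway in the level of SERPINH1 was not tested.

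**Figure D4:**
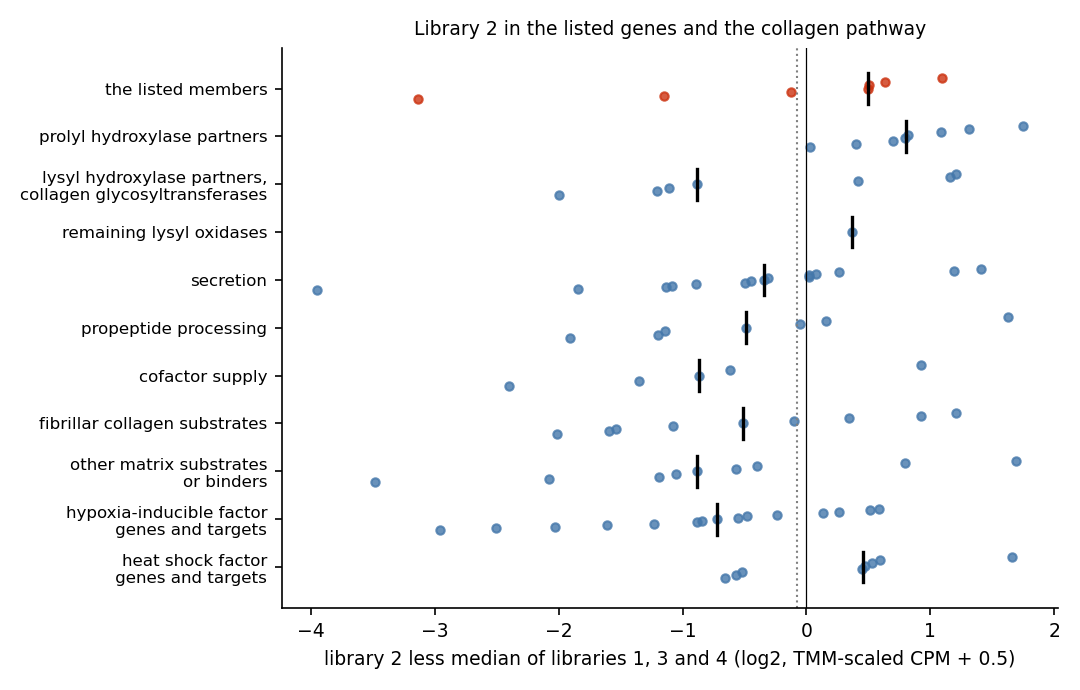
Each point is 1 gene that averaged 1 CPM or more, placed by the log2 level of library 2 less the median of libraries 1, 3 and 4, in the listed members (red) and 10 lists of related genes (blue), with black bars at list medians and a dotted line at the median of all rows (-0.07). The listed members run from -3.13 (PLOD2) to 1.10 (SERPINH1), and the prolyl hydroxylase partners all lie above 0.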

How the data were processed

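The authors deposited estimated counts per Ensembl rhesus gene, already whole numbers and not divided by length. The tools named are Salmon and DESeq2, per the submitters' processing notes, with neither version nor role. No source used here gives the build or annotation. Salmon shares reads among transcripts that match equally well, so near-identical genes carry assignment error. Symbols came from a table of current Ensembl identifiers and matched 14654 of 21314 rows. TMM factors were computed over the 17534 rows with a count in edgeR 4.0.16 (R 4.3.3), and a pseudocount of 0.5 CPM was used on the log2 scale. Level differences within a library were to be divided by coding length. No length was given in the sources used here, so counts per gene were compared. LOX and LOXL2 had no row, which left 6 of the planned pairs. They were tested by flipping signs over the 4 libraries (exact permutation test, two-sided) and adjusted together. Dixon's gap test, which flags about 1 in 20 groups by chance, was tested on simulated data. A count of 3, the limit that a count of 0 allows, is 0.135 to 0.185 CPM. The text names the 10 members, the 3 highest genes of each related list and 11 fixed partners. After their values were seen it also names HIF1A, SEC23A, P3H2, TMEM38B, TLL1, ELN, ADM, PGK1, TYR, CD3E, KRT8, MEP1A and MEP1B. The markers PECAM1, KDR, KRT18, KRT19, EPCAM and CDH1 were likewise named after their values were seen. Members and lists were chosen with earlier results of these data known. No sequences are shown, since none was given in the sources used here. Alternative scalings were plain CPM, DESeq2 1.42.0 size factors and TMM on the rows kept by filterByExpr (minimum count 10). Further alternatives were pseudocounts of 0.1 and 1 CPM, thresholds of 0.5 and 5 CPM, and leaving out each library with TMM recomputed.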

Additional observations from a re-analysis of the deposited data

Results flagged for a closer look

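Of 46 values examined with Dixon's test (8 members, 32 other named genes and 6 paralog pairs), in 21 a single library lay apart. The 32 genes are from the related lists and do not include KRT18 or the other epithelial and endothelial markers. By chance about 1 in 20 would be picked out, but 36.9% of all rows with a mean of 1 CPM or more had a library apart, so the share is to be read against that. It was library 2 in all 21, so these values share a library and are not independent. For members it was low for P4HA1 (140 CPM) and PLOD2 (60.02 CPM) and high for SERPINH1 (1487 CPM). For pairs, the log2 difference in library 2 was 1.10 for P4HA1 and P4HA2, 0.70 for PLOD1 and PLOD2, and -0.39 for PLOD2 and PLOD3.

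Among the other named genes, library 2 was low for 10: COLGALT1 (38.9 CPM), FKBP9 (79.4 CPM), SEC31A (256 CPM), SEC23A (8.82 CPM), IDH1 (215 CPM), FN1 (3228 CPM), THBS1 (51.1 CPM), EPAS1 (326 CPM), HIF1A (52.3 CPM) and HSPD1 (866 CPM). It was high for 5: PPIB (2089 CPM), PCOLCE (485 CPM), KDELR1 (706 CPM), HSPA8 (2863 CPM) and HSPE1 (628 CPM). SEC23A and HIF1A are in these counts although they were picked after their values were seen. P3H2, TMEM38B, TLL1, ELN, ADM and PGK1 were also picked after their values were seen, and are not in these counts. No library lay apart for any of these, so the share of values with a library apart is raised by this choice.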

How the results depend on the processing

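No paired analysis was possible because the libraries form 1 group. Division by coding or transcript length was not run, and Dixon's test cannot be run on 3 libraries. Every mean paralog difference kept its sign under the scalings, pseudocounts and leave-one-out sets run. The scale of a library cancels in a difference within it, apart from the pseudocount, so the scalings could hardly change these means. In single libraries the sign was reversed for each PLOD pair, in library 4 for PLOD1 and PLOD3 and in library 2 for the others. Leaving out 1 library gave 1.75 to 2.11 log2 units for P4HA1 and P4HA2, -3.04 to -1.74 for PLOD1 and PLOD2 and 1.96 to 3.22 for PLOD2 and PLOD3, the extremes of the last 2 pairs on the side away from 0 being those without library 2. The PLOD2 share was 62.2% to 81.4%. TMM was recomputed in each leave-one-out set, so the mean CPM values that follow also carry a change of scale. The shares do not, and the log2 differences do only through the pseudocount. The mean of P4HA2 was 66.7 to 76.8 CPM, the higher value without library 2, which is more than 1 SD above 69.6 CPM. With the original scaling kept, the mean of P4HA2 without library 2 was 71.1 CPM. The mean of PLOD2 was 356 to 578 CPM, the higher value without library 2, against 535 CPM with the original scaling kept. For P4HA3, library 2 less the median of the others, 0.069 with TMM, was -0.19 with plain CPM and between -0.055 (without replicate 3) and 0.22 (without replicate 4) when a library was left out. At 10 to 20 counts a library, depth limits P4HA3, while every other member with a row had at least 973 counts in each library.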
